A study of Homo sapiens with 12 samples.

Results

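The genes that make, break down and use glutamate were followed across sunitinib-sensitive and sunitinib-resistant clear cell renal carcinoma (ccRCC) lines. The members were the rows of the deposited count table whose gene symbol was GLS2, GLUL, GLUD1, GLUD2, GOT1, GOT2, GPT or GPT2. All 8 were found among the 45478 genes of the table, and the rule itself used gene symbols only.

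Poly(A)-selected RNA was sequenced in 12 libraries, which fall into 4 groups of 3. All 12 sample titles carry the tag veh, which the paper does not explain. The parental groups are 786-O and A498, established human ccRCC lines kept without the drug. Sunitinib inhibits the receptor tyrosine kinases of VEGF and PDGF and is used against ccRCC, and the resistant groups were selected in it: the resistant 786-O line was grown from parental 786-O at 4 µM and the resistant A498 line from parental A498 at 2 µM, over 4 months or more than 20 passages. The paper does not state whether the drug was in the medium when RNA was taken. Each resistant line is a single named culture, and the sources do not say whether the libraries of a group were grown apart. The labels give each group a separate batch. P-values therefore measure the spread between these libraries, and the effects of resistance, culture and batch cannot be told apart.

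Total counts per library ran from 40845091 to 47972092 in parental 786-O, from 42643735 to 46888482 in resistant 786-O, from 21686648 to 34951585 in parental A498 and from 20042519 to 25831163 in resistant A498. Levels are given as CPM, the count of a gene scaled to the TMM-adjusted size of its library. Of the 6 markers of kidney tubule and ccRCC, 5 or 6 reached a mean of 1 CPM in each group. CA9, a hypoxia-induced ccRCC antigen, had 0 counts in resistant 786-O, 0 to 2 in parental 786-O and 0 to 1 in resistant A498. Only in parental A498 did it reach 1 CPM, at 1.29 ± 0.250 CPM. The summed level of 4 fibroblast markers was 6.47 to 6.89 CPM in parental 786-O, 10.1 to 11.3 in resistant 786-O, 50.4 to 61.9 in parental A498 and 19.1 to 21.4 in resistant A498. That sum joined opposite moves, since from parental to resistant A498 COL1A1 went from 55.4 ± 5.88 to 3.70 ± 0.128 CPM and LUM from 0.0219 ± 0.0194 to 16.2 ± 1.37 CPM, and the part of these genes in the results below was not tested. The resistant A498 libraries lay nearer to resistant 786-O (median Pearson r of log2 CPM over 10085 genes, 0.968) and to parental 786-O (0.893) than to parental A498 (0.728), the line named as their parent. Member results for resistant A498 are therefore given against both parental A498 and parental 786-O. Replicate 2 of resistant 786-O stood apart from the other 2 libraries of its group (SD of the log2 deviation 0.293, against 0.118 for the difference between the other 2), so member results for resistant 786-O are also given without it.

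Glutaminase releases ammonia from glutamine to form glutamate inside mitochondria, and glutamine synthetase runs the opposite step in the cytosol. Glutamate then enters the citric acid cycle as 2-oxoglutarate, either through glutamate dehydrogenase or through transaminases that pass its amino group to oxaloacetate or pyruvate. The aspartate and alanine aminotransferases each come as a cytosolic and a mitochondrial enzyme, and the aspartate pair is also part of the malate-aspartate shuttle.

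Differences were tested with edgeR's quasi-likelihood test on the counts, with Benjamini-Hochberg adjustment over the 19929 genes tested and a threshold of 0.05. All 8 members passed the filter on low counts. GLUL passed it only through its resistant libraries, since 6 of 12 libraries exceeded the cutoff of 0.264 CPM, and GLUD2 exceeded it in 8 and GPT in 11.

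GLUL therefore had to differ between resistant and parental lines, and it is given by its counts and floor, with no test of that difference. Between parental 786-O and resistant 786-O, GLS2 and GPT rose, GLUD1, GOT1 and GOT2 fell, and GLUD2 and GPT2 did not pass the test. These 5 of the other 7 members compare with 68.5% of all genes called in this comparison (35.0% higher and 33.5% lower). Between parental A498 and resistant A498, GLUD1 and GOT1 rose, GLUD2 and GPT2 fell, and GLS2, GOT2 and GPT did not pass. That is 4 of 7 members beside 72.7% of all genes (36.3% higher and 36.4% lower). Between parental 786-O and resistant A498, GOT1, GPT and GPT2 were higher, GLUD1 and GOT2 were lower, and GLS2 and GLUD2 did not pass, which is 5 of 7 beside 63.6% of all genes (31.6% higher and 32.1% lower). In each comparison the share of members called was near that of the whole table, so the counts by themselves are no result about these enzymes. The median log2 fold change of these 7 members was 0.10 in resistant 786-O, 0.04 in resistant A498 against parental A498 and -0.13 in resistant A498 against parental 786-O, beside 0.03, -0.0041 and 0.0029 for all genes tested.

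GLUL, which encodes glutamine synthetase, lies on the minus strand of chromosome 1 (182378098 to 182392206, GRCh38, as are all positions given here). Its counts were 0, 0 and 1 in the parental 786-O libraries and 19, 20 and 14 in resistant 786-O, the 20 being replicate 2. They were 0 in all 3 parental A498 libraries and 13, 10 and 8 in resistant A498. Both parental groups were at the floor of 3 counts or fewer in every library. A count of 0 in parental A498 allows a level of up to 0.0869 to 0.139 CPM per library. The level was 0.384 ± 0.0760 CPM (SD, n = 3) in resistant 786-O and 0.425 ± 0.0974 CPM in resistant A498. Set against the floor of 3 counts per library, GLUL was at least 5.17-fold higher in resistant 786-O than in parental 786-O. In resistant A498 it was at least 3.79-fold higher than in parental A498 and at least 5.72-fold higher than in parental 786-O. The resistant lines did not differ detectably from each other (log2 fold change 0.14 ± 0.34, SE, adjusted p = 0.76). In the resistant lines too GLUL stayed under 1 CPM. The GENCODE 44 annotation places no other gene on its exons, but the release used for counting was not used here, so a gene model of that release on the same bases was not checked. Its processed copy GLULP4 had at most 2 counts in any library.

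GLS2 encodes the liver-type glutaminase, a mitochondrial enzyme, and lies on the minus strand of chromosome 12 (56470944 to 56488414). Its level was 0.421, 0.647 and 0.732 CPM in the parental 786-O libraries (16, 25 and 33 counts) and 1.21, 0.847 and 1.22 CPM in resistant 786-O (59, 37 and 56 counts). Every resistant 786-O library was above every parental 786-O library. The log2 fold change was 0.85 ± 0.23 (SE), an increase of 1.81-fold (adjusted p = 0.0048), and without replicate 2 of resistant 786-O it was 1.00 ± 0.23. In parental A498 the level was 0.521, 0.418 and 0.515 CPM, and in resistant A498 it was 0.485, 0.383 and 0.626 CPM, from 8 to 18 counts per library. The parental A498 and resistant A498 libraries overlapped, with a log2 fold change of 0.04 and an approximate 95% interval from -0.60 to 0.67 (adjusted p = 0.93). Against parental 786-O, resistant A498 also overlapped (-0.26 ± 0.30, adjusted p = 0.46). GLS2 was lower in resistant A498 than in resistant 786-O by 1.12 on the log2 scale (adjusted p = 0.0035).

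The counts of GLS2 share bases with a neighbour. Of its 4141 exonic bases, 3194 lie in exons of SPRYD4, a gene on the opposite strand, and 41.1% of the 100-base windows of its canonical transcript occur in transcripts of SPRYD4 or of an unnamed overlapping gene. Counting was stated to use strand. Over the whole table, however, among 288 gene pairs in which over 90% of the exonic bases of one gene lay inside an opposite-strand gene with over 2 counts per base, the enclosed gene had a median of 1.52 times the counts per base of its partner, so GLS2 and SPRYD4 are read as uncertain. SPRYD4 was at 12.5 ± 0.470 CPM in parental 786-O and 11.9 ± 1.12 CPM in resistant 786-O (log2 fold change -0.08 ± 0.08, adjusted p = 0.41). It did not change with GLS2 in that comparison, and it was lower in resistant A498 than in parental A498 (-0.30 ± 0.09, adjusted p = 0.0084).

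**Figure D1:**
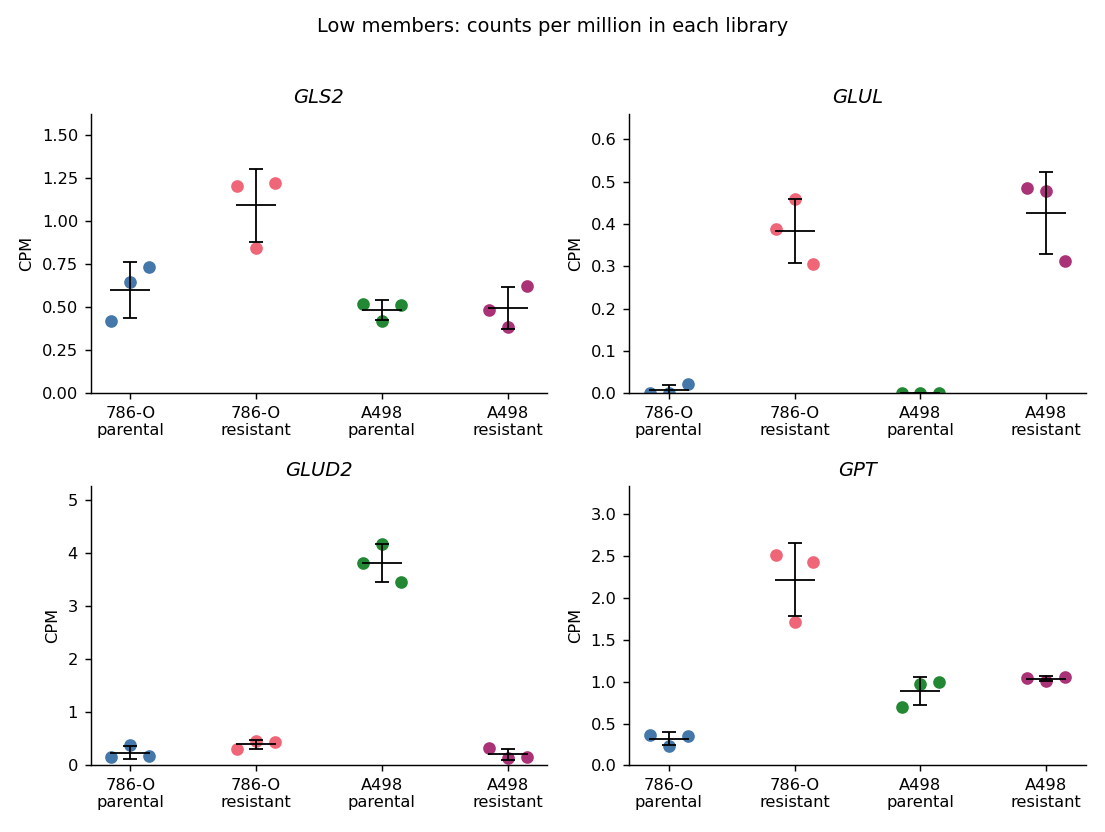
CPM (vertical axes, linear, starting at 0) of the low members GLS2, GLUL, GLUD2 and GPT in the 12 libraries, by group. Points are libraries and the black bars are the mean and SD of 3. GLUL is at or near 0 in both parental groups, GLUD2 is high in parental A498 alone (3.46 to 4.18 CPM) and GPT is highest in resistant 786-O.

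Glutamate dehydrogenase converts glutamate to 2-oxoglutarate and ammonia in mitochondria. GLUD1 (chromosome 10, 87050202 to 87094843, minus strand) is the broadly used gene, and GLUD2 (chromosome X, 121047610 to 121050094, plus strand) is its retrocopy, a single exon that arose from a processed GLUD1 transcript. Both are shown here because reads of one can fit the other. Their coding sequences are both 1674 bases long and identical at 1634 positions (97.6%), and 399 of the 1575 windows of 100 coding bases hold no difference at all. The stretches below, from coding base 799 to 898, carry the median of 2 differences per window, which are in capitals.

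GLUD1, chr10:87062679-87062778, minus strand: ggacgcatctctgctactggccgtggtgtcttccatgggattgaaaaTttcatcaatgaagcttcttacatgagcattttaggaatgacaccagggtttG
GLUD2, chrX:121048483-121048582, plus strand: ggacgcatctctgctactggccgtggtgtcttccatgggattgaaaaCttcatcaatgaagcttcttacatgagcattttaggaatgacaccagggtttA

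By its coding bases alone, a single read that lies between such differences cannot be placed, and one that spans a difference can. The reads were paired, so the place of a read can also rest on its mate. The likeness goes on upstream of both starts. In the RefSeq promoter windows (GRCh38.p14), which held 6 of the 8 members and lacked GPT and GPT2, the 250 bases before each start are printed below with their longest shared run, of 34 bases, in capitals. It ends 10 bases before the GLUD1 start and 9 bases before that of GLUD2. The sequences are shown because the 2 genes, so alike up to and beyond their starts, had different patterns over the 4 groups.

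GLUD1, chr10:87094844-87095093, minus strand: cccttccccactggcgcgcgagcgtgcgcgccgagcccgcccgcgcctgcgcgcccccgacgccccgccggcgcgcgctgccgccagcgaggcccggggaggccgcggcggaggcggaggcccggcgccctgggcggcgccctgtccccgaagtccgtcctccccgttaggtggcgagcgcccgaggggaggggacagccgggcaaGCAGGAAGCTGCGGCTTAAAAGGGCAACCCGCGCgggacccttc
GLUD2, chrX:121047360-121047609, plus strand: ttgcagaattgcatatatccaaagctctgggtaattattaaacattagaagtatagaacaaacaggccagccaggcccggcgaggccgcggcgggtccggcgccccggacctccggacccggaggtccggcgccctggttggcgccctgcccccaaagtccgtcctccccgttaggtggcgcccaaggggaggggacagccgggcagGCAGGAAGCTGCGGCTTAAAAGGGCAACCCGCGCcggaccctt

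GLUD1 was at 263, 253 and 255 CPM in parental 786-O and at 176, 209.8 and 176 CPM in resistant 786-O. All resistant 786-O libraries were below all parental 786-O libraries, and replicate 2 was the highest of the 3. The level in resistant 786-O was 72.9% of that in parental 786-O (log2 fold change -0.46 ± 0.06, adjusted p = 6.8e-06), and without replicate 2 the log2 fold change was -0.55 ± 0.04. In parental A498 GLUD1 was at 132, 136 and 129 CPM, the lowest of the 4 groups, and in resistant A498 at 209, 203 and 207 CPM. Resistant A498 was 1.56-fold above parental A498 (log2 fold change 0.64 ± 0.06, adjusted p = 1.5e-07, or 0.28 ± 0.08 after a correction for GC and length) and at 80.3% of the level in parental 786-O (-0.32 ± 0.06, adjusted p = 0.00026). The groups thus ranked parental 786-O, resistant A498, resistant 786-O and parental A498, and only resistant A498 and resistant 786-O overlapped among neighbours in that order (0.14 ± 0.06, adjusted p = 0.069). Without replicate 2 of resistant 786-O that last difference was 0.23 ± 0.04 (adjusted p = 4.6e-06). SHLD2, whose exons on the opposite strand share 464 of the 14283 exonic bases of GLUD1, went the same way: its log2 fold change was -0.43 ± 0.05 in resistant 786-O against parental 786-O and 0.33 ± 0.05 in resistant A498 against parental A498. The part of SHLD2 reads in the GLUD1 counts was not tested.

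GLUD2 behaved differently. It had 132, 90 and 94 counts in the parental A498 libraries (3.82, 4.18 and 3.46 CPM) and 9, 3 and 4 in resistant A498 (0.335, 0.144 and 0.156 CPM). Every parental A498 library was at least 90 counts and no other library of the study exceeded 20. GLUD2 fell by 4.11 on the log2 scale (SE 0.31) from parental A498 to resistant A498, to 5.80% of the parental A498 level (adjusted p = 1.1e-08). The resistant A498 level overlapped that of parental 786-O, where counts were 6, 15 and 8 (0.158, 0.388 and 0.177 CPM), with a log2 fold change of -0.13 ± 0.46 (adjusted p = 0.82). In resistant 786-O there were 15, 20 and 20 counts (0.306, 0.458 and 0.437 CPM). The resistant 786-O and parental 786-O libraries overlapped through replicate 2 of parental 786-O, and the log2 fold change of 0.73 ± 0.35 did not pass the test (adjusted p = 0.078). Without that library it was 1.22 ± 0.37 (adjusted p = 0.011), and without replicate 1 of resistant 786-O it was 0.92 ± 0.37 (adjusted p = 0.043). Without replicate 2 of resistant 786-O it was 0.62 ± 0.39 (adjusted p = 0.14). Parental A498 exceeded parental 786-O by 3.98 ± 0.27 on the log2 scale, a 15.7-fold difference between the parental lines (adjusted p = 3.0e-09). While GLUD2 fell between parental A498 and resistant A498, GLUD1 rose. The copy GLUD1P3 had 24 to 33 counts in parental 786-O, 48 to 58 in resistant 786-O, 6 to 22 in parental A498 and 18 to 23 in resistant A498.

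GOT2, the mitochondrial aspartate aminotransferase (chromosome 16, 58707131 to 58734342, minus strand), was highest in parental 786-O. It was at 268, 268 and 261 CPM there and at 176, 205 and 183 CPM in resistant 786-O, with no overlap. The resistant 786-O level was 70.7% of that in parental 786-O (log2 fold change -0.50 ± 0.05, adjusted p = 9.6e-07), and without replicate 2 of resistant 786-O the log2 fold change was -0.57 ± 0.04. In parental A498 GOT2 was at 171, 185 and 182 CPM and in resistant A498 at 179, 175 and 176 CPM. These overlapped, and the log2 fold change of -0.02 had an approximate 95% interval from -0.13 to 0.08 (adjusted p = 0.72). Resistant A498 was at 66.6% of the level in parental 786-O (-0.59 ± 0.05, adjusted p = 2.0e-07), and so was parental A498 at 67.6% (-0.56 ± 0.05, adjusted p = 1.6e-07). GOT2 therefore separated parental 786-O from the other 3 groups, none of which was apart from its neighbour in the order of levels.

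GOT1, the cytosolic partner (chromosome 10, 99396870 to 99430624, minus strand), changed less than GOT2 against parental 786-O and more within the A498 pair. It was at 87.0, 83.2 and 85.4 CPM in parental 786-O and 72.8, 72.5 and 74.5 CPM in resistant 786-O. The resistant 786-O libraries were all lower, at 86.0% of the parental 786-O level (log2 fold change -0.22 ± 0.04, adjusted p = 0.00057), and -0.21 ± 0.04 without replicate 2. This call was lost when libraries were scaled by their size alone (-0.07 ± 0.04, adjusted p = 0.15), a scaling that moved the median of all genes in this comparison by 0.14. In parental A498 GOT1 was at 75.2, 70.8 and 70.6 CPM and in resistant A498 at 99.6, 97.0 and 93.2 CPM, the highest group. Resistant A498 was 1.34-fold above parental A498 (0.42 ± 0.05, adjusted p = 8.3e-07) and 1.13-fold above parental 786-O (0.18 ± 0.05, adjusted p = 0.0026).

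**Figure D2:**
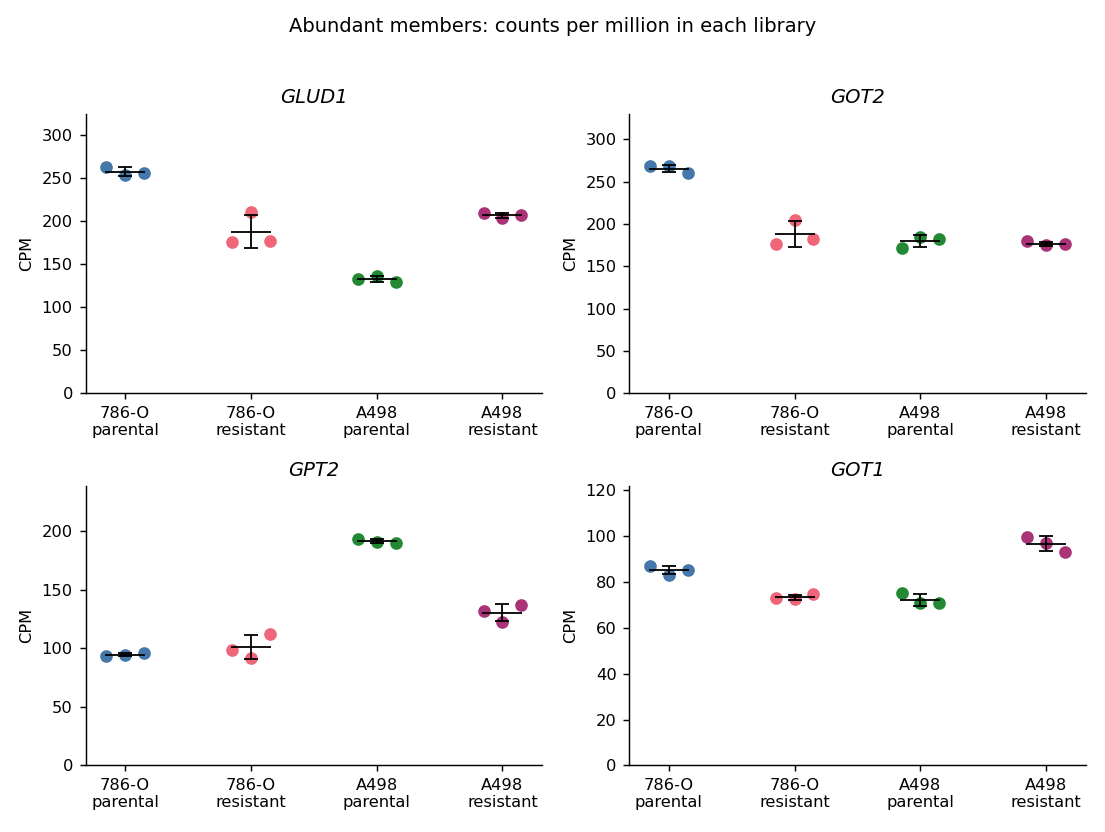
CPM (vertical axes, linear, starting at 0) of the abundant members GLUD1, GOT2, GPT2 and GOT1 in the 12 libraries, by group. Points are libraries and the black bars are the mean and SD of 3. GLUD1 and GOT2 are highest in parental 786-O, GPT2 in parental A498 and GOT1 in resistant A498.

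Of the alanine aminotransferases, which make alanine from pyruvate, GPT (chromosome 8, 144502973 to 144507174, plus strand) encodes the cytosolic and GPT2 (chromosome 16, 46884362 to 46931289, plus strand) the mitochondrial enzyme. GPT had 14, 9 and 16 counts in the parental 786-O libraries (0.368, 0.233 and 0.355 CPM) and 123, 75 and 111 in resistant 786-O (2.51, 1.72 and 2.43 CPM). All resistant 786-O libraries were above every other library of the study. GPT rose 6.88-fold in resistant 786-O (log2 fold change 2.78 ± 0.23, adjusted p = 5.4e-08), and by 2.93 ± 0.22 without replicate 2. In parental A498 there were 24, 21 and 27 counts (0.695, 0.976 and 0.993 CPM) and in resistant A498 28, 21 and 27 (1.04, 1.00 and 1.06 CPM). The resistant A498 libraries were all higher than the parental A498 libraries, but the log2 fold change of 0.25 ± 0.25 did not pass the test (adjusted p = 0.38), and 39.4% of all genes were higher without overlap in this comparison. Both A498 lines were above parental 786-O, resistant A498 by 3.21-fold (1.68 ± 0.27, adjusted p = 7.2e-05, or 1.08 ± 0.34 after thinning to the smallest library) and parental A498 by 2.71-fold (1.44 ± 0.28, adjusted p = 0.00025). GPT shares 207 of its 2756 exonic bases with a long noncoding RNA gene on the opposite strand.

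GPT2 was at 93.2, 94.4 and 95.6 CPM in parental 786-O and 98.8, 91.9 and 112 CPM in resistant 786-O. The libraries overlapped through replicate 2 of resistant 786-O, and the log2 fold change was 0.10 with an approximate 95% interval from -0.03 to 0.22 (adjusted p = 0.18). Without replicate 2 of resistant 786-O it was 0.16 ± 0.05 and passed the test (adjusted p = 0.0029). In parental A498 GPT2 was at 193, 191 and 189.9 CPM, about 2.03-fold the level in parental 786-O (1.02 ± 0.06, adjusted p = 9.4e-10). In resistant A498 it was at 132, 122 and 137 CPM, between those lines and overlapping neither. GPT2 fell by 0.55 on the log2 scale from parental A498 to resistant A498 (SE 0.06, adjusted p = 1.2e-06) and was 0.47 ± 0.06 above parental 786-O (adjusted p = 1.2e-05).

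**Figure D3:**
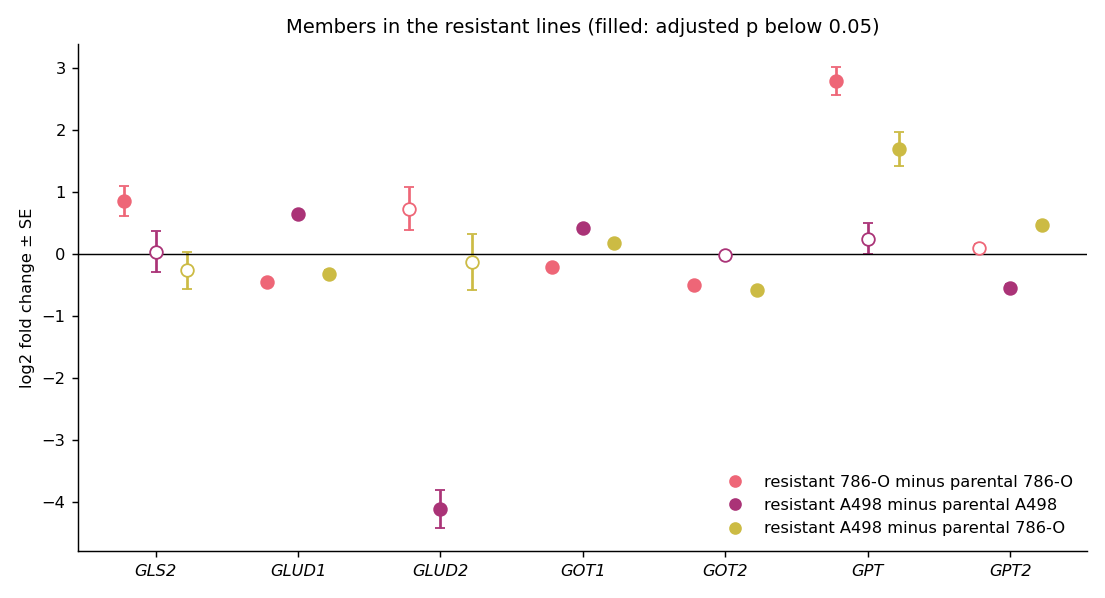
Log2 fold changes (vertical axis) of 7 members in resistant 786-O against parental 786-O, resistant A498 against parental A498 and resistant A498 against parental 786-O, with standard errors. Filled points passed the adjusted p threshold of 0.05 and open points did not. GLUL is left out because both parental groups are at the floor. The largest fall is GLUD2 in resistant A498 against parental A498 (-4.11) and the largest rise is GPT in resistant 786-O (2.78).

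The balance within each enzyme pair was read as the share of one gene in the counts of both, which does not depend on the scaling between libraries. GOT1 made up 24.5, 23.7 and 24.7% of GOT1 and GOT2 counts in the parental 786-O libraries and 29.3, 26.1 and 29.0% in resistant 786-O. In parental A498 the share was 30.5, 27.7 and 27.9% and in resistant A498 35.7, 35.7 and 34.6%. The cytosolic share was thus lowest in parental 786-O and highest in resistant A498, each apart from all other groups, and resistant 786-O and parental A498 overlapped. Both enzymes fell in resistant 786-O, GOT2 by more. In resistant A498, GOT1 rose against parental A498 and GOT2 did not pass the test.

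GPT made up 0.394, 0.246 and 0.370% of the counts of GPT and GPT2 in parental 786-O and 2.48, 1.83 and 2.12% in resistant 786-O. In parental A498 it was 0.358, 0.508 and 0.520% and in resistant A498 0.787, 0.814 and 0.766%. Both resistant lines lay above both parental lines in this share, without overlap. In resistant 786-O GPT was higher than in parental 786-O and GPT2 did not pass the test. In resistant A498 GPT2 was lower than in parental A498, while against parental 786-O both genes were higher, GPT by more. Nearly all counts of the pair came from GPT2 in every library. GLUD2 made up 2.61 to 2.97% of the counts of GLUD1 and GLUD2 in parental A498 and at most 0.247% in any other library. No test was run on these shares.

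**Figure D4:**
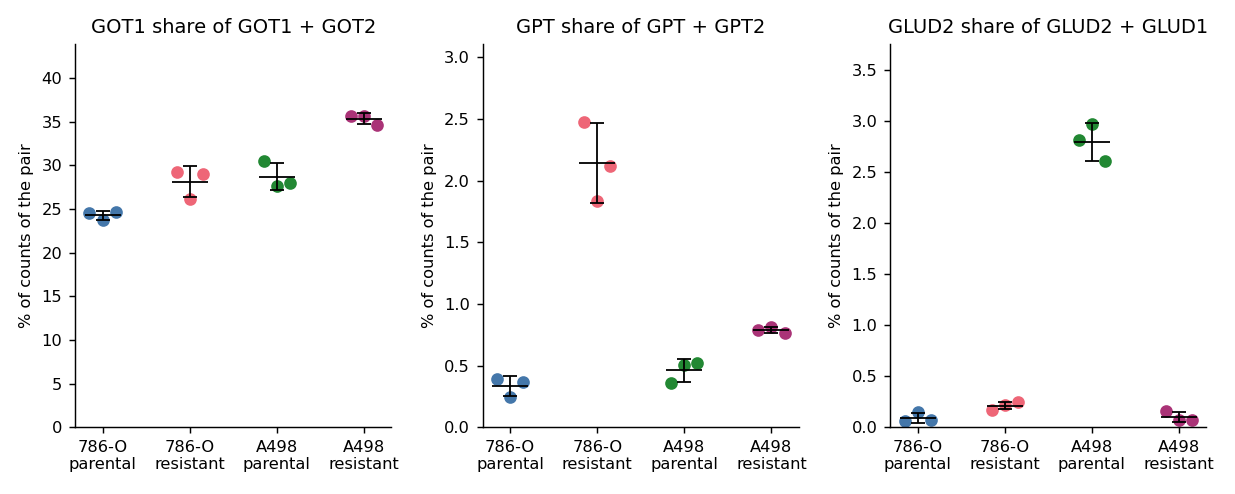
Share of GOT1 in the counts of GOT1 and GOT2, of GPT in those of GPT and GPT2, and of GLUD2 in those of GLUD1 and GLUD2 (vertical axes, percent, starting at 0), by group. Points are libraries and the black bars are the mean and SD of 3. The GOT1 share is lowest in parental 786-O (24.3%) and highest in resistant A498 (35.4%), the GPT share is highest in resistant 786-O (2.14%) and the GLUD2 share in parental A498 (2.80%).

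Between genes, levels were compared per kilobase of all merged exons (RPKM on TMM-scaled library sizes). In parental 786-O, GOT2 stood first at 70.7 ± 1.11 RPKM, followed by GOT1 at 35.1 ± 0.802, GLUD1 at 18.0 ± 0.363 and GPT2 at 14.8 ± 0.190. GLS2 was at 0.145 ± 0.0388, GPT at 0.116 ± 0.0271 and GLUD2 at 0.0970 ± 0.0513 RPKM there. The members split into 4 abundant and 4 low genes in every group. The lowest level among the abundant genes was that of GLUD1 in parental A498, at 9.28 ± 0.257 RPKM, and the highest among the low ones was that of GLUD2 in the same line, at 1.54 ± 0.146. The order among the abundant members depended on the length used. Per kilobase of the canonical transcript, which for GLUD1 is 3300 bases against 14283 in all merged exons, GLUD1 in parental 786-O was at 77.9 ± 1.57 RPKM, above GOT1 at 43.1 ± 0.983.

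The resistant lines were also set against each other. GOT1 and GPT2 were higher in resistant A498 than in resistant 786-O (0.40 ± 0.05, adjusted p = 6.9e-06, and 0.37 ± 0.06, adjusted p = 0.00024). GLS2 and GPT were lower, GPT by 1.10 on the log2 scale (adjusted p = 0.00054). The other 4 did not pass, so 4 of 8 members were called, beside 46.1% of all genes (23.0% in each direction). GOT2 was among those that did not pass (-0.09, approximate 95% interval -0.19 to 0.02, adjusted p = 0.20). Between the parental lines, GLUD2, GPT and GPT2 were higher in parental A498 than in parental 786-O and GLUD1, GOT1 and GOT2 were lower, which is 6 of 8 members beside 74.2% of all genes (36.1% higher and 38.2% lower). GLUD1 in parental A498 was at 51.6% of its level in parental 786-O (-0.96 ± 0.06, adjusted p = 1.2e-09) and GOT1 at 84.8% (-0.24 ± 0.05, adjusted p = 0.00023).

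Whether the change from parental to resistant line differed between the A498 and the 786-O pair was tested as the difference of the 2 log2 fold changes. It passed for 6 of 8 members, beside 68.3% of all genes (33.9% upward and 34.4% downward). GLUD1, GOT1 and GOT2 changed more upward in the A498 pair (by 1.09 ± 0.08, 0.64 ± 0.06 and 0.48 ± 0.08) and GLUD2, GPT and GPT2 more downward. GLUD1 and GOT1 fell in resistant 786-O and rose in resistant A498 against parental A498. Against parental 786-O, resistant A498 had GLUD1 lower and GOT1 higher.

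For the 4 members with a mean of at least 5 CPM, the genes with the most similar log2 CPM over the 12 libraries were looked up among genes with at least 10 CPM. GLUD1 was nearest to REEP5, an endoplasmic reticulum shaping protein (Pearson r = 0.995), and SLBP, the histone stem-loop binding protein (0.995). GOT1 was nearest to TARS1, a threonyl-tRNA synthetase (0.980), and COMMD2 (0.979). GOT2 was nearest to PHC2, a Polycomb protein (0.992), and HCG25 (0.991). GPT2 was nearest to ALDH1A1, a retinaldehyde dehydrogenase (0.990), and SREBF1, a regulator of lipid synthesis (0.986). The points are libraries of 4 groups and share their group's batch, so these values describe differences between groups. REEP5 was at 207 ± 1.13 CPM in parental 786-O, 161 ± 13.2 in resistant 786-O, 122 ± 6.01 in parental A498 and 173 ± 3.02 in resistant A498, the same order as GLUD1. ALDH1A1, at 88.4 ± 0.974, 122 ± 34.1, 1193 ± 178 and 333 ± 15.3 CPM in those groups, had the order of GPT2 with a far wider range.

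The other enzymes and carriers that handle glutamine and glutamate were read from 41 genes in 6 lists, of which 38 were tested. In resistant 786-O against parental 786-O, 9 of these were higher, 18 lower and 11 not called, beside 68.5% called among all genes, and 10 were higher and 21 lower without replicate 2 of resistant 786-O, beside 73.6%. Their median log2 fold change was -0.14. In resistant A498, 12 were higher and 22 lower against parental A498, and 11 higher and 17 lower against parental 786-O (medians -0.29 and -0.17), beside 72.7% and 63.6% of all genes called. The resistant 786-O value without replicate 2 is given below for each gene named. The lists differed in their counts. Exons shared with another gene cover over 50% of the bases in 1 of the 41 genes.

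The 10 glutamine amidotransferases use the amide nitrogen of glutamine for nucleotides, amino sugars and asparagine. In resistant 786-O against parental 786-O, 6 were lower and 2 higher, beside 33.5% of all genes lower and 35.0% higher. Against parental 786-O, resistant A498 also had 6 lower, with 3 higher, beside 32.1% of all genes lower and 31.6% higher. CTPS1, a CTP synthase, was at 171 ± 2.2 CPM in parental 786-O, 98.9 ± 15.9 in resistant 786-O, 124 ± 4.26 in parental A498 and 80.9 ± 2.39 in resistant A498. It fell by 0.79 in resistant 786-O (adjusted p = 4.8e-07) and by 0.61 in resistant A498 against parental A498 (adjusted p = 7.1e-06) on the log2 scale. Against parental 786-O, resistant A498 was at -1.08 ± 0.08 (adjusted p = 2.3e-08), and without replicate 2 resistant 786-O was at -0.94 ± 0.04. GFPT2, which starts hexosamine synthesis, was at 6.85 ± 0.575, 1.97 ± 0.513, 42.4 ± 1.19 and 2.35 ± 0.422 CPM in the same order of groups. Its log2 fold change was -1.81 ± 0.14 in resistant 786-O (adjusted p = 3.9e-08) and -4.15 ± 0.14 in resistant A498 against parental A498 (adjusted p = 1.5e-12). It was -1.53 ± 0.16 in resistant A498 against parental 786-O (adjusted p = 6.5e-07), and -2.01 ± 0.12 in resistant 786-O without replicate 2.

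All 3 tested genes of the GABA list, which covers the synthesis of the transmitter GABA from glutamate and its return to succinate, were higher in resistant 786-O and in resistant A498 than in parental 786-O, where 35.0 and 31.6% of all genes were higher. They were also all higher in parental A498 than in parental 786-O, where 36.1% of all genes were higher. Against parental A498, resistant A498 had 1 higher, 1 lower and 1 not called, beside 36.3% of all genes higher and 36.4% lower. GAD1, the glutamate decarboxylase, was at 2.97 ± 0.242 CPM in parental 786-O and 6.78 ± 0.586 in resistant 786-O (log2 fold change 1.19 ± 0.11, adjusted p = 1.2e-07). It was at 25.1 ± 1.42 CPM in parental A498 and 7.08 ± 0.751 in resistant A498, a fall of 1.83 on the log2 scale (adjusted p = 2.1e-10), so its direction in resistant A498 depended on the line it was set against (1.25 ± 0.11 against parental 786-O, adjusted p = 1.4e-07). Without replicate 2 resistant 786-O was at 1.26 ± 0.10. ALDH5A1, the succinate semialdehyde dehydrogenase, rose in each: it was at 3.44 ± 0.107, 6.37 ± 0.431, 4.73 ± 0.149 and 16.7 ± 1.02 CPM in parental 786-O, resistant 786-O, parental A498 and resistant A498. The log2 fold change was 0.89 ± 0.09 in resistant 786-O and 1.82 ± 0.09 in resistant A498 against parental A498 (adjusted p = 8.0e-11), and 2.28 ± 0.09 against parental 786-O (adjusted p = 1.8e-11). Without replicate 2 resistant 786-O was at 0.91 ± 0.10.

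Among 7 genes of proline and ornithine metabolism, 2 were higher and 3 lower in resistant 786-O, beside 35.0% of all genes higher and 33.5% lower. PRODH, the proline dehydrogenase that starts the path from proline back to glutamate, was at 1.51 ± 0.287 CPM in parental 786-O, 5.84 ± 1.58 in resistant 786-O, 2.2 ± 0.114 in parental A498 and 3.24 ± 0.570 in resistant A498. It rose by 1.95 ± 0.20 in resistant 786-O (adjusted p = 6.2e-07) and by 0.57 ± 0.23 in resistant A498 against parental A498 (adjusted p = 0.034). It was 1.11 ± 0.23 in resistant A498 against parental 786-O (adjusted p = 0.00054), and 2.16 ± 0.13 in resistant 786-O without replicate 2. PYCR3, a reductase of proline synthesis, was at 48.7 ± 2.36 CPM in parental 786-O, 40.4 ± 9.60 in resistant 786-O, 43.8 ± 2.42 in parental A498 and 21.4 ± 1.5 in resistant A498. It was lower in resistant A498 against both parental lines, by 1.03 on the log2 scale against parental A498 (adjusted p = 3.3e-06) and by 1.18 against parental 786-O (adjusted p = 9.2e-07). In resistant 786-O it did not pass (-0.27 ± 0.12, adjusted p = 0.050), although it did without replicate 2 (-0.48 ± 0.06, adjusted p = 1.9e-09).

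Of the 5 glutathione genes, 3 were lower in resistant 786-O, where 33.5% of all genes were lower, and the other 2 were not called. Against parental A498 all 5 were lower in resistant A498, beside 36.4% of all genes. Against parental 786-O 3 were lower and 1 higher, beside 32.1% of all genes lower and 31.6% higher. Of the 6 other transaminases tested, 1 was higher and 3 lower in resistant 786-O, beside 35.0% of all genes higher and 33.5% lower. PSAT1, the phosphoserine aminotransferase of serine synthesis, which uses glutamate as its amino donor, was at 228 ± 0.412 CPM in parental 786-O, 319 ± 37.2 in resistant 786-O, 451 ± 17.7 in parental A498 and 489 ± 19.1 in resistant A498. It rose by 0.49 ± 0.07 in resistant 786-O (adjusted p = 1.4e-05), and the resistant A498 level did not differ detectably from parental A498 (0.11 ± 0.07, adjusted p = 0.14). Against parental 786-O, resistant A498 was higher by 1.10 ± 0.07 (adjusted p = 2.6e-09), and without replicate 2 resistant 786-O was at 0.57 ± 0.04. Of the 7 malate-aspartate shuttle genes, 1 was higher and 3 lower in resistant 786-O, beside 35.0% of all genes higher and 33.5% lower. In resistant A498 against parental A498, 1 was higher and 6 lower, beside 36.3% of all genes higher and 36.4% lower. Against parental 786-O, resistant A498 had 1 higher, 4 lower and 2 not called, where 32.1% of all genes were lower.

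**Figure D5:**
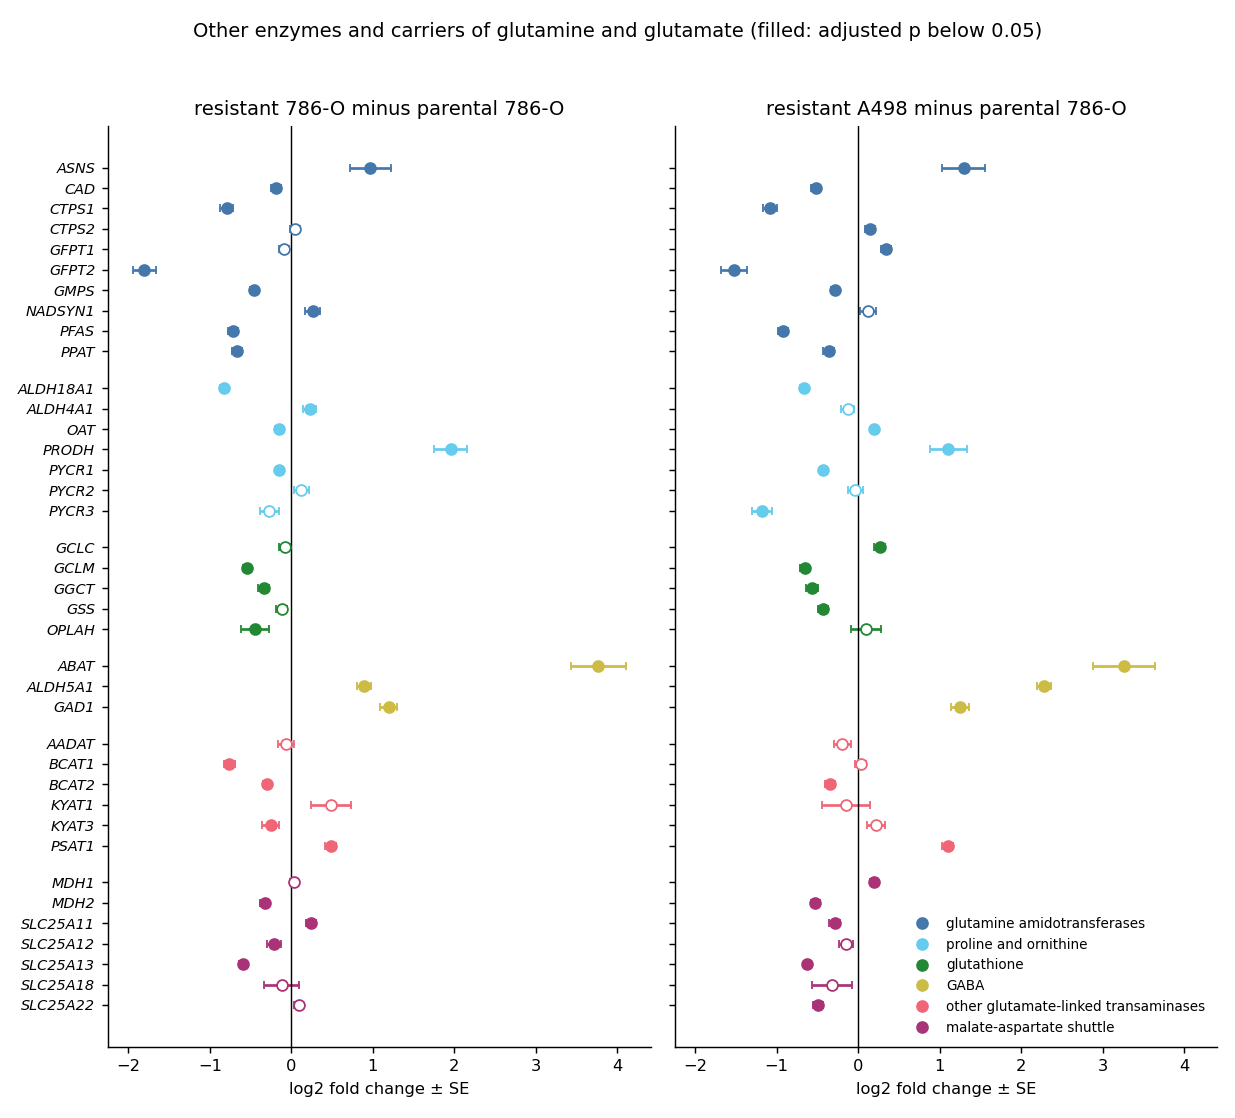
Log2 fold changes (horizontal axes, with standard errors) of the 38 tested genes of the 6 lists in resistant 786-O against parental 786-O and in resistant A498 against parental 786-O. Colors mark the lists, and filled points passed the adjusted p threshold of 0.05. The 3 GABA genes lie right of 0 in both panels, and GFPT2 is the farthest left in both (-1.81 and -1.53).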

How the data were processed

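Raw gene counts were deposited for 12 libraries as 1 table, with no normalization by the authors. According to the methods, the authors prepared stranded poly(A) libraries, trimmed reads with Trimmomatic 0.36.6, aligned them to GRCh38 with HISAT2 2.1.0 and counted them over GENCODE 33 exons with featureCounts 1.6.3 in a strand mode. Groups were taken from the sample labels. The 8 members, the 6 wider lists and the comparisons were chosen with earlier results of these data known.

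Genes were filtered with filterByExpr (19929 kept of 45478, 37667 of them with a count), scaled by TMM and fitted in 1 model of 12 libraries with edgeR 4.0.16 (limma 3.58.1, R 4.3.3), as a quasi-likelihood test with a prior count of 0.125 and Benjamini-Hochberg adjustment over all genes tested. The study's own test, per gene and unadjusted, was run as an alternative. CPM and RPKM used TMM-scaled library sizes, with lengths, positions and symbols from GENCODE 44 (45283 of 45478 genes matched). Approximate 95% intervals were taken from the standard error. Folds against a group with 3 counts or fewer in every library were computed at that floor. Such intervals and floors cover counting error and the spread between libraries only. The test was checked on simulated counts with a small set of genes changed 2-fold. That check cannot speak to changes in as many genes as were called here. Alternatives were other scalings, filters and sample sets, DESeq2 1.42.0, a prior count of 2, thinning to the smallest library, a GC and length correction (19860 genes), a replicate block, a minimum fold, transcript length and each library left out. Transcript length and the wider lists without replicate 2 of resistant 786-O were chosen after seeing the data. Members were named in full. Wider-list genes were named if called with an absolute log2 fold change over 1 in resistant 786-O or resistant A498 against parental 786-O and at 5 CPM or more in the higher group. ABAT, below that level, was named only to show its low level within the GABA list. Tables and figures used Python 3.11.15, pandas 2.3.3 and matplotlib 3.10.9.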

Additional observations from a re-analysis of the deposited data

Results flagged for a closer look

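For 6 of 8 members the change from parental to resistant line differed between the A498 and the 786-O pair, by edgeR's test of the difference of the 2 log2 fold changes. The difference (A498 pair minus 786-O pair) was 1.09 ± 0.08 (SE) for GLUD1 (adjusted p = 2.1e-08, or 0.62 with the GC and length trend removed), 0.64 ± 0.06 for GOT1 (adjusted p = 4.3e-07) and 0.48 ± 0.08 for GOT2 (adjusted p = 5.4e-05). It was -4.84 ± 0.49 for GLUD2 (adjusted p = 4.0e-07), -2.54 ± 0.35 for GPT (adjusted p = 1.1e-05, or -1.84 with the GC and length trend removed) and -0.65 ± 0.09 for GPT2 (adjusted p = 1.1e-05). For GLS2 it was -0.82 ± 0.40 and did not pass (adjusted p = 0.085), although it did without replicate 2 of resistant 786-O (-0.95 ± 0.41, adjusted p = 0.037). Such differences were called for 68.3% of all genes. The resistant A498 libraries lay nearer to both 786-O lines than to parental A498, and the part of this in the differences was not tested.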

How the results depend on the processing

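The alternatives kept the direction and the side of the threshold in 546 log2 fold changes of members, with 28 weaker, 7 stronger and 16 reversed. Leaving out each library in turn did so in 536, with 6 stronger and 10 reversed. Both tallies include GLUL against the parental lines, where it had to differ. The minimum fold reused the main fit, so no direction could turn there. Most reversals were of values near 0, and the cause was not tested. For GOT2 in resistant A498 against parental A498 (-0.02) the log2 fold change was 0.046 with scaling by library size, 0.020 without a filter and -0.054 to 0.019 with a library left out. The sign turned without replicate 1 or 3 of resistant 786-O, replicate 2 of parental A498 or replicate 2 or 3 of resistant A498. For GLUD2 in resistant A498 against parental 786-O (-0.13) it was 0.018 with scaling by library size and -0.63 to 0.36 with a library left out, turning without replicate 2 of parental 786-O or replicate 2 or 3 of resistant A498. For GLS2 in resistant A498 against parental A498 (0.04) it was -0.27 after thinning, -0.15 in the study's test on raw counts and -0.13 to 0.21 with a library left out, turning without replicate 2 of parental A498 or replicate 3 of resistant A498. For GLUL in resistant A498 against resistant 786-O (0.14) it was -0.011 after thinning and -0.77 in the test on raw counts. With the GC and length trend removed, GPT2 in resistant 786-O against parental 786-O (0.10) was -0.10 and GLUD1 in resistant A498 against resistant 786-O (0.14) was -0.12. The test on raw counts, which leaves depth uncorrected, also turned GOT1 (-0.55) and GPT2 (-0.26) in resistant A498 against parental 786-O and GLUD1 (-0.77), GOT1 (-0.52) and GPT2 (-0.54) in resistant A498 against resistant 786-O. It called 2 members (6222 of 19921 genes) in resistant A498 against parental A498, beside 5 (14496 of 19929) in edgeR. It called 8 (13423 of 19863) in resistant A498 against resistant 786-O, beside 4 (9180) in edgeR.

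Requiring 10 counts in every library left 3 members called in resistant A498 against parental A498, of 5 with GLUL included as in all counts here. It left 2 of 4 in resistant A498 against resistant 786-O, and 4 of 6 in each other comparison and in the difference. It removed low members, and 11232, 8029 and 10371 to 11318 of 14866 genes were called there. GLUL had to differ between resistant and parental lines, so its call there is no result. Without GLUL the main test called 5 members in resistant 786-O, 4 in resistant A498 against parental A498 and 5 against parental 786-O. Requiring an absolute log2 fold change over 1 left 2, 2, 2, 3 and 2 members in resistant 786-O against parental 786-O, resistant A498 against parental A498, resistant A498 against parental 786-O, parental A498 against parental 786-O and resistant A498 against resistant 786-O, and 3 in the difference of the pairs. In that order it left 4382, 6137, 3983, 6360, 1455 and 6998 of 19929 genes. With a library left out, 6 to 7, 5, 6, 6 and 4 to 5 members were called in those 5 comparisons, and 6 to 7 in the difference. Scaling by library size moved the share of higher genes among all called from 51.1 to 62.5% in resistant 786-O against parental 786-O and from 49.6 to 62.6% in resistant A498 against parental 786-O. It moved the median by 0.14 and 0.15, and in resistant 786-O against parental 786-O it called GLUD2 (0.87) and GPT2 (0.24) and lost GOT1. In parental A498 against parental 786-O, GOT1 was lost with the GC and length trend removed (-0.10, adjusted p = 0.058). That correction also lowered GLUD1 in resistant A498 against parental A498 from 0.64 to 0.28 (adjusted p = 0.0046). Leaving GLUL aside, folds moved by over 1.5 times for GPT in the difference of the pairs with that correction (-1.84), for GPT in resistant A498 against parental 786-O after thinning (1.08, adjusted p = 0.012) and for 7 members in resistant A498 against each 786-O line in the test on raw counts.

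The replicate numbers did not pair the libraries, with correlations of same-numbered deviations from -0.18 to 0.20. With the replicate number as a block, 6, 5, 6, 6, 4 and 6 members were called in the order above, as without it. With the block and the GC and length trend removed, GPT2 in resistant 786-O against parental 786-O was -0.10 and GLUD1 in resistant A498 against resistant 786-O was -0.12. GOT1 in parental A498 against parental 786-O was lost there (-0.10, adjusted p = 0.058). Depth limits GLUL, GLUD2, GLS2 and GPT most, at 0 to 132 counts per library.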
